A study of Mus musculus with 13 samples.

Results

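Genomic imprinting marks some mammalian genes by DNA methylation in the germ line, so that only the copy inherited from the mother or only that from the father is transcribed. Many imprinted genes act on fetal growth: Igf2, a paternally expressed growth factor, and Dlk1, a paternally expressed transmembrane protein of the Notch ligand family, are paired with maternally expressed restraints such as Cdkn1c, an inhibitor of cyclin-dependent kinases, and Grb10, an adaptor that damps insulin and IGF receptor signalling. Several are transcribed in fetal pancreas and decline after birth, and a few, such as Nnat and Rasgrf1, have been studied in mouse beta cells. The 40 genes described here are mouse imprinted genes taken from a list of known ones. Of these, 33 were named in the array annotation used here and 28 were measured above background, 15 of them paternally and 13 maternally expressed by common usage, among 10400 genes measured in all. The arrays do not tell the parental copies apart, so every value is the total transcript of a gene. Whether the parental class of a gene held in these samples was therefore not tested.

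Transcripts of 13 samples, all labelled C57BL/6, were measured on Illumina bead arrays. The strain label of the stem cell line could not be checked here, and a strain difference from the pancreatic samples could not be told apart from the group. W9.5 embryonic stem cells served as a negative control (n = 2). Islet progenitors, purified and with pancreas as their source, were differentiated and sampled on day 0 in 4 replicates, day 1 in 3 and day 4 in 2. Adult islets (n = 2) were a positive control. The labels give no allele, agent, animal age or method of purification for these groups, nor do they tell whether a replicate was its own culture or animal. The spread behind every p-value is therefore that of these samples, and it may be technical.

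Levels are the deposited log2 intensities, in which 1 unit is a doubling of fluorescence, and a probe was taken as above background over 7.24. The share of probes over this level was 44.2% to 46.5% per array. Beta cell markers averaged 10.14 to 11.69 on the pancreatic arrays and 7.02 to 7.06 on the stem cell arrays, where 0 of 9 were above background, and pluripotency markers averaged 11.28 to 11.40 on the stem cell arrays and 7.18 to 7.45 elsewhere. The acinar markers averaged 9.18 to 11.92 on the progenitor arrays and 13.17 to 13.46 in adult islets, so islets and progenitors both held exocrine transcripts. Day 4 replicates correlated at 0.995 over the genes measured, above every other pair of replicates (0.938 to 0.989). In such bulk samples fewer cells of a type and less RNA per cell cannot be told apart.

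Promoter sequences are shown for members on which the results turn, because the DNA methylation of imprints falls on CpG dinucleotides, capitalised here. Whether any window shown carries an imprint is not given in the sources used here. They come from RefSeq on GRCm38.p6 and cover the 250 bases before 1 annotated start of each gene, 5′ to 3′ on the gene's strand. A promoter window was found for 24 of the 28 measured genes. For Dlk1, Rasgrf1 and Mest the annotated gene begins further upstream (chr12:109452485, chr9:89909508 and chr6:30733506), so each of these windows lies inside its gene. Dlk1, Nnat and Ndn were lower in adult islets than at day 4, Rasgrf1 and Nap1l5 were at background in embryonic stem cells and not in the pancreatic groups, and Mest is shown upstream of 1 of its starts because it holds matches to a hexamer described next, a choice made after those matches were counted. Peg3 and Usp29 lie back to back, so the 163 bases between 1 annotated start of each are given on the plus strand. The outermost annotated positions of these genes, chr7:6730462 for Peg3 and chr7:6730559 for Usp29, lie inside this interval. The windows are Dlk1 at chr12:109452573-109452822 (plus), Nnat at chr2:157559828-157560077 (plus), Ndn at chr7:62348027-62348276 (plus), Rasgrf1 at chr9:89909525-89909774 (plus), Nap1l5 at chr6:58907127-58907376 (minus), Mest at chr6:30737800-30738049 (plus) and the Peg3 and Usp29 interval at chr7:6730420-6730582.
Dlk1: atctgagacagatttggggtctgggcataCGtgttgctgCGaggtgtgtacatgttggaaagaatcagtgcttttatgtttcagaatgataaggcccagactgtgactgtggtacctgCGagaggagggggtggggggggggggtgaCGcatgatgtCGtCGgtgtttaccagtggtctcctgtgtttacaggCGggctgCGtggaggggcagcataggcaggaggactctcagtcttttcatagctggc
Nnat: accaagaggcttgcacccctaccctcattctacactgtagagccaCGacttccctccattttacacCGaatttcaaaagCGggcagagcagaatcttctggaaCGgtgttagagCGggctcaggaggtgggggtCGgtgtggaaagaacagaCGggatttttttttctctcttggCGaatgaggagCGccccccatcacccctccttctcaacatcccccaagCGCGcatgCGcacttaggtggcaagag
Ndn: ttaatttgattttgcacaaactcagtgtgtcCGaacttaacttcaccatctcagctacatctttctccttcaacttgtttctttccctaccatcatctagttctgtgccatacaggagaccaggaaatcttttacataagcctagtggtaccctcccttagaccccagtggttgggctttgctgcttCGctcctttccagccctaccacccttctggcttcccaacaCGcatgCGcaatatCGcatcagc
Rasgrf1: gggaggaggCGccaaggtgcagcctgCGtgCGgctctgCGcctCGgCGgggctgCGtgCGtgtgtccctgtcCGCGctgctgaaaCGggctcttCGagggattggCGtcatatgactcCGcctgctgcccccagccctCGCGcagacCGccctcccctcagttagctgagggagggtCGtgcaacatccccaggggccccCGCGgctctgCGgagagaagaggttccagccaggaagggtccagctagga
Nap1l5: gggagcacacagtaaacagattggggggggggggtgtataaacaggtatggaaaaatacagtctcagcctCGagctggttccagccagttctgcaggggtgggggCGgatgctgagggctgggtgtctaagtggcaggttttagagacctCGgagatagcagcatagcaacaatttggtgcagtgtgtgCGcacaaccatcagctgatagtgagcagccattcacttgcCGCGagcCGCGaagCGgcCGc
Mest: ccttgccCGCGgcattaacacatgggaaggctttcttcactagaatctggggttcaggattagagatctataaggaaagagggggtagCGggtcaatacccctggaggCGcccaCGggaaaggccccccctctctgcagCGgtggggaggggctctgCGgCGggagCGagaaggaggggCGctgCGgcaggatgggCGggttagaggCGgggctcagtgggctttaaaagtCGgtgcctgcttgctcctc
Peg3 and Usp29: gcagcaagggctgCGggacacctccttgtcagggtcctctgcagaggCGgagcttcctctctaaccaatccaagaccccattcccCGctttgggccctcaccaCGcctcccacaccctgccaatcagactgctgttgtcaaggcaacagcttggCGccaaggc

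These windows held 21 CpG in Rasgrf1, 14 in Mest, 12 in Nnat, 10 in Nap1l5, 8 in Dlk1 and 5 in Ndn. Over the 40 windows of the measured members the median was 10 CpG, against 6 over all 32851 windows of the table. The hexamer TGCCGC, which the imprint-protecting zinc finger protein Zfp57 binds when methylated, was searched on both strands and was found in 10% of the members' windows and in 8.68% of all windows. It was present before Mest (2 matches in the window shown), Nap1l5 (1 match) and Zim1. The 10% stands for 4 of 40 windows, and overlapping Mest windows (starts at 30738050 and 30738053) count the same matches more than once.

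By group mean, 17 of the 28 were highest in progenitors (6 at day 0, 3 at day 1 and 8 at day 4), 6 were highest in adult islets and 5 in embryonic stem cells. These include Zim1 (7.20 at day 0) and Ascl2 (7.23 in stem cells), whose highest group means were below background. Zim1 was kept only through 2 day 0 arrays. Progenitors make up 3 of the 5 groups, and the share of all genes highest in them was not computed. Of the 28, 23 passed the test in at least 1 of 7 comparisons, and Dcn, Gnas, Usp29, Zim1 and Ascl2 passed in none. The matching share of all genes was not computed, but 49.2% of all genes passed between stem cells and day 0 alone. Peg12, Plagl1, Magel2, Sgce and Osbpl5 were on the array and were above background on 0 of 13 arrays. H19, Meg3, Rian, Mirg, Kcnq1ot1, Copg2 and Airn were not analysed here.

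**Figure D1:**
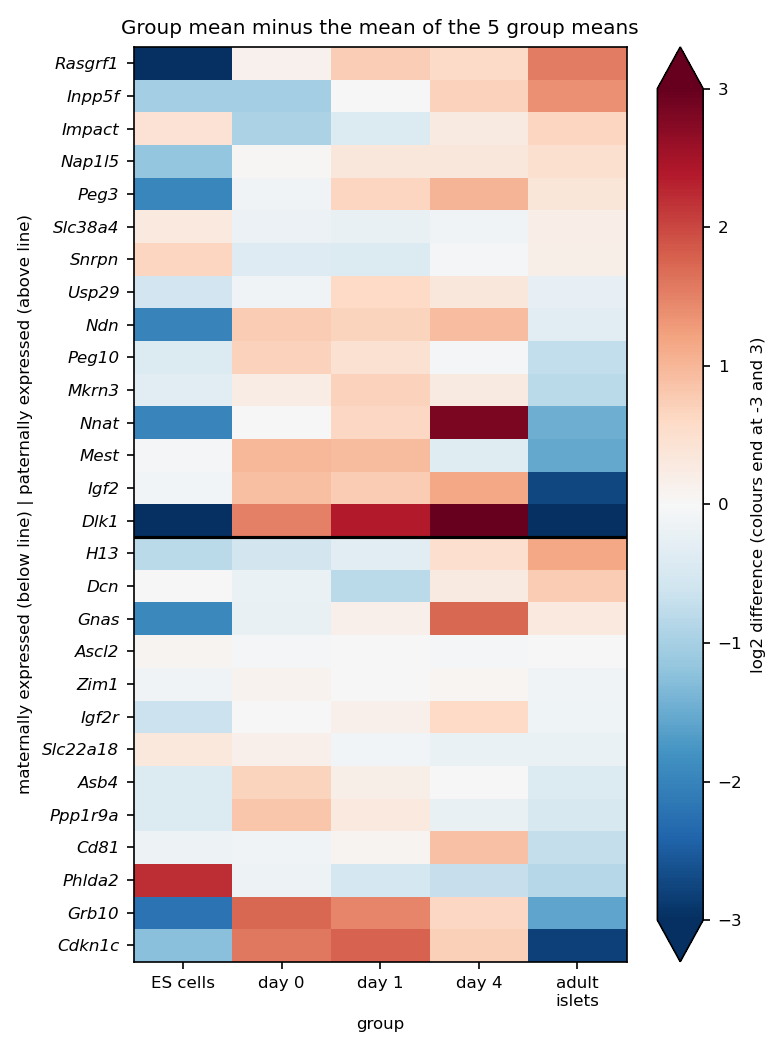
Mean log2 intensity of each group minus the mean of the 5 group means, for the 28 measured members (colour scale in log2 units, ending at -3 and 3; paternally expressed genes above the line, maternally expressed below). Dlk1, Igf2, Cdkn1c and Grb10 are low in adult islets, and Inpp5f, H13, Rasgrf1 and Impact are highest there.

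Islet progenitors carried more Dlk1, Grb10, Rasgrf1 and Ndn transcript than embryonic stem cells did, and less Phlda2, Impact and Snrpn. From stem cells to day 0, 13 of 28 measured members were higher and 4 lower, against 49.2% of all genes called (26.5% higher and 22.8% lower), and the median difference of the members was 0.83 on the log2 scale against 0.05 over all genes. Among paternally expressed members 8 of 15 were higher and 3 lower, and among maternally expressed members 5 of 13 were higher and 1 lower. No test of the difference between the parental classes was made.

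Dlk1 was near or below background in stem cells, at 7.24 and 6.97, and stood at 12.34, 12.87, 12.10 and 12.42 on the day 0 arrays. The groups did not overlap, and the difference was 5.32 ± 0.20 (log2 ± SE, limma adjusted p = 1.01e-08). Grb10 rose from 9.60 and 9.51 to 13.45, 13.71, 13.59 and 13.21, a difference of 3.94 ± 0.14 (adjusted p = 5.26e-09). Cdkn1c stood at 9.65 and 9.20 in stem cells and between 11.52 and 12.86 at day 0, a difference of 2.84 ± 0.72 (adjusted p = 0.00704). Without stem cell replicate 2 the Cdkn1c adjusted p was 0.0568. Each of the 3 was higher on every day 0 array than on either stem cell array.

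Other members were higher at day 0 as well. Rasgrf1, an exchange factor that activates Ras downstream of calcium and receptor signals, was below background on both stem cell arrays (7.14 and 7.02) and at 9.78, 9.94, 10.68 and 10.38 at day 0. On this probe it was at least 7.78-fold higher (adjusted p = 4.27e-06), and on the 3 dimmer Rasgrf1 probes at least 6.18-, 1.76- and 1.29-fold, so the size depends on the probe. Ndn, the MAGE family protein necdin of the Prader-Willi region, stood at 9.80 and 9.64 in stem cells and between 12.40 and 12.66 at day 0 (2.77 ± 0.12, adjusted p = 1.93e-08). Its neighbour Snrpn, a core protein of the spliceosome, went the other way, from 11.99 and 11.39 in stem cells to between 10.27 and 10.86 (-1.03 ± 0.20, adjusted p = 0.00131). Genes of this imprinted region thus differed in opposite directions between the same groups, while Mkrn3, a ubiquitin ligase gene of the same region, differed by 0.56 ± 0.20 (adjusted p = 0.0401), a call lost in 13 of 26 alternative settings.

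Peg3, a zinc finger protein, was below background in stem cells and at least 3.26-fold higher at day 0 (adjusted p = 0.0028), at 9.85, 7.99, 8.94 and 9.002. Usp29, the deubiquitinase transcribed from the other side of the same interval, was at 7.44 and 7.09 in stem cells and between 7.41 and 8.24 at day 0, and did not pass (0.46 ± 0.23, adjusted p = 0.125). The difference between these neighbours was not tested. Peg10, a retrotransposon-derived gene (1.10 ± 0.18), Asb4, an ankyrin repeat protein of the SOCS box type (at least 1.74-fold), Ppp1r9a, the actin-binding protein neurabin (1.25 ± 0.12), and Nap1l5, a nucleosome assembly family member (at least 1.89-fold), were also higher. Nnat, neuronatin, a small proteolipid of the endoplasmic reticulum, was at 6.97 and 7.18 in stem cells and at 9.67, 7.17, 9.67 and 9.74 at day 0, with replicate 2 at background on this probe. Its second probe read 8.61, 9.81, 9.62 and 9.64 on the same day 0 arrays, so replicate 2 was the highest there. Nnat was at least 3.55-fold higher on the brighter probe and at least 4.53-fold on the second, and the call on the brighter probe (adjusted p = 0.0224) was lost without day 0 replicate 1 or 4 and without either stem cell array.

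Members lower at day 0 than in stem cells included Phlda2, a pleckstrin homology protein that limits placental growth in mouse. It stood at 9.93 and 10.54 in stem cells and between 7.66 and 7.99 at day 0 (-2.37 ± 0.19, adjusted p = 2.02e-06). Impact, an inhibitor of the amino acid sensor Gcn2, was lower too (-1.39 ± 0.22), as was the amino acid transporter Slc38a4 (-0.48 ± 0.16, adjusted p = 0.032, with overlapping arrays and the call lost in 9 of 26 alternative settings). Igf2r, the receptor that clears Igf2 from the cell surface, was called higher (0.68 ± 0.23, adjusted p = 0.0328), but its second probe differed by -0.69, so this 1 of the 13 higher calls has no settled direction. Igf2 itself did not pass, at 12.54 and 11.09 in stem cells against 12.05 to 13.56 at day 0.

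**Figure D2:**
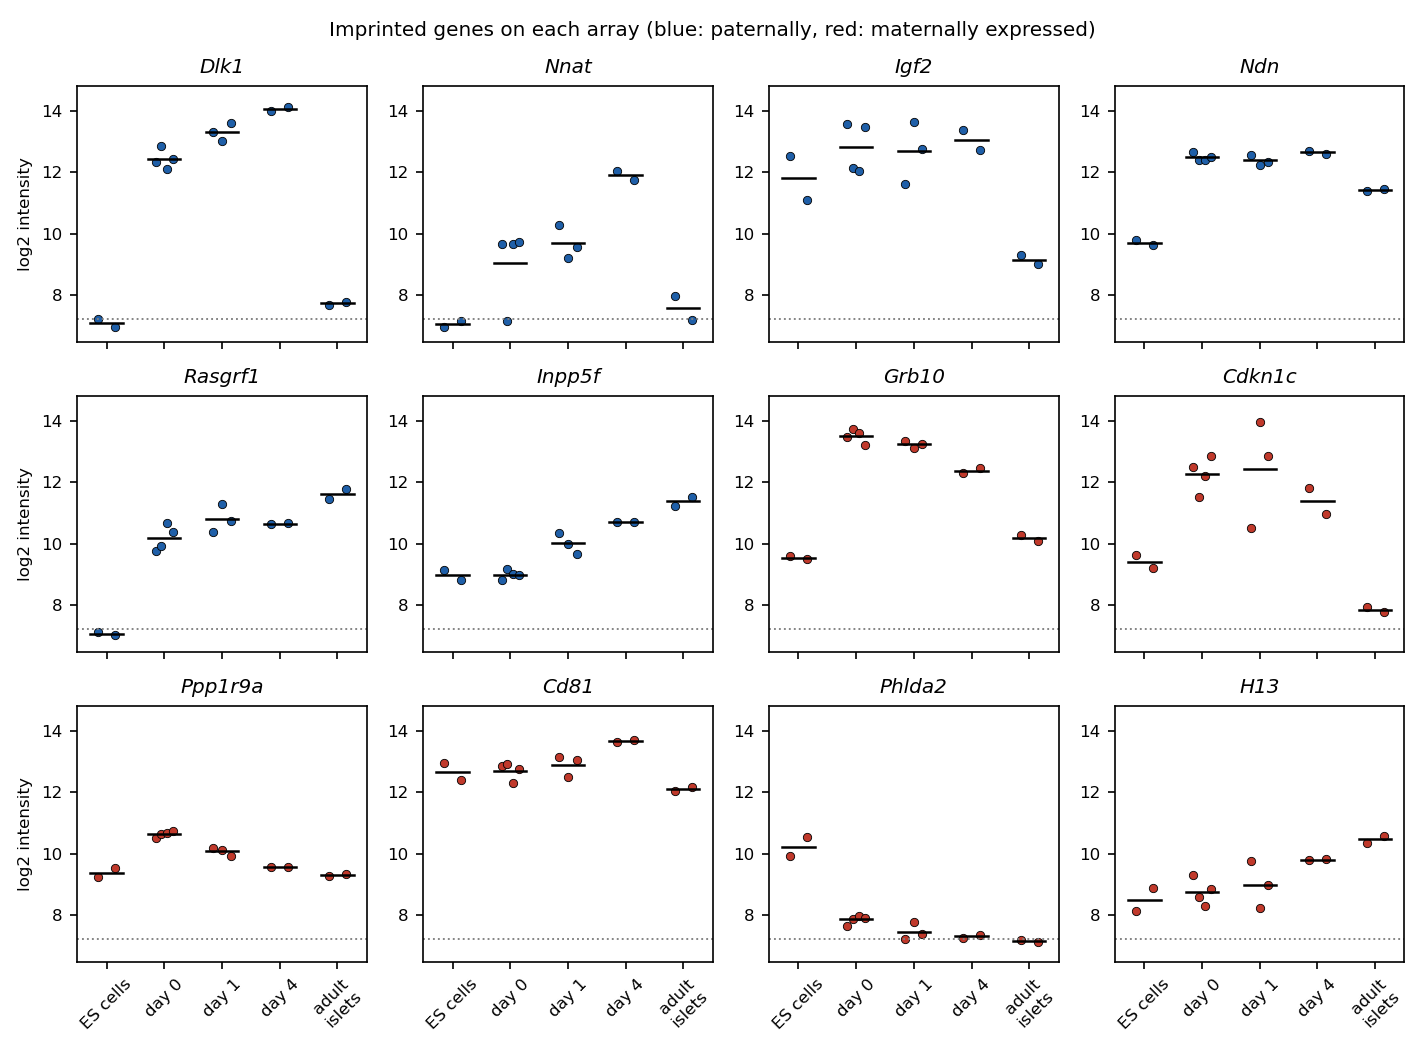
Log2 intensity of 12 members on each of the 13 arrays by group (points: arrays; bars: group means; dotted line: background level 7.24; blue paternally, red maternally expressed). Dlk1 climbs from 12.10 to 12.87 at day 0 to 13.97 and 14.12 at day 4 and lies at 7.71 and 7.80 in adult islets, while Inpp5f rises from day 0 to adult islets.

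During the first day of differentiation few imprinted genes moved. Dlk1 and Inpp5f rose and Ppp1r9a fell, so 2 of 28 measured members were higher and 1 lower, against 4.37% of all genes called (2% higher and 2.37% lower), with a member median of 0.08 against 0.00 over all genes. Inpp5f, a phosphoinositide phosphatase whose short variant is the imprinted one, went from 8.82, 9.18, 9.01 and 8.998 to 10.36, 10.01 and 9.67, a difference of 1.01 ± 0.16 (limma adjusted p = 0.00611). Which variants the probe detects is not given in the sources used here, and 2 further Inpp5f probes were at background on every array. Dlk1 stood at 13.29, 13.03 and 13.60 at day 1, above all 4 day 0 arrays (0.88 ± 0.18, adjusted p = 0.0216), and Ppp1r9a at 10.19, 10.13 and 9.92, below all 4 (-0.56 ± 0.10, adjusted p = 0.0144). Without day 1 replicate 3 only Inpp5f passed, and without day 0 replicate 3 the count was 5.

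By day 4 the progenitors had more Dlk1, Nnat, Inpp5f, Impact and Cd81 transcript than at day 0, and less Grb10, Ppp1r9a and Peg10. That is 5 of 28 measured members higher and 3 lower, against 11.4% of all genes called (5.38% higher and 6.04% lower), and the member median was 0.28 against -0.03 over all genes. Of the 15 paternally expressed members 4 were higher and 1 lower, and of the 13 maternally expressed 1 was higher and 2 lower.

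Dlk1 reached 13.97 and 14.12 at day 4 (1.62 ± 0.20 over day 0, adjusted p = 9.68e-04, 3.07-fold). Nnat, at 10.30, 9.21 and 9.57 at day 1, reached 12.05 and 11.75 at day 4, above every day 0 array, a difference of 2.84 ± 0.63 (adjusted p = 0.0173) that ranked 9 among the rises of all 10400 genes. The second Nnat probe differed by 0.52, so the size of this difference depends on the probe. Without day 0 replicate 2, where the brighter probe alone was at background, the difference was 2.21 (adjusted p = 0.00242), and without either day 4 array the call was lost. Inpp5f stood at 10.69 and 10.72 (1.70 ± 0.18, adjusted p = 3.29e-04), Impact at 10.89 and 10.90 (1.21 ± 0.22, adjusted p = 0.00686) and Cd81, a tetraspanin of the cell surface, at 13.64 and 13.71 (0.97 ± 0.22, adjusted p = 0.0179). On all 3 genes both day 4 arrays lay above every day 0 array.

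Grb10 was lower at day 4, at 12.29 and 12.46, than at day 0, at 13.21 to 13.71, or at day 1, at 13.35, 13.10 and 13.23. The difference was -1.12 ± 0.14 from day 0 (adjusted p = 9.68e-04) and -0.85 ± 0.15 from day 1 (adjusted p = 0.0217). It was the 1 member of 28 called between day 1 and day 4, against 1.55% of all genes (0.99% higher and 0.558% lower), with a member median of 0.08 against -0.03. At an unadjusted limma p under 0.05, 5 members were higher and 4 lower, and the share of all genes at that threshold was not computed. The Grb10 call from day 1 was lost without day 1 replicate 3 or either day 4 array. Ppp1r9a was at 9.59 and 9.55 (-1.07 ± 0.12 from day 0, adjusted p = 4.34e-04), and Peg10 went from 8.27, 8.38, 8.90 and 8.47 to 7.75 and 7.82 (-0.72 ± 0.18, adjusted p = 0.0256). Without either day 4 array 4 of the 8 calls against day 0 remained, those of Dlk1, Inpp5f, Grb10 and Ppp1r9a.

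Adult islets held much less transcript of Dlk1, Nnat, Igf2, Cdkn1c and Grb10 than day 4 progenitors. Of 28 measured members 9 were lower and 0 higher, against 14.4% of all genes called (7.52% higher and 6.9% lower), and the member median was -0.48 against -0.04 over all genes. At an unadjusted limma p under 0.05 the counts were 10 lower and 2 higher, and the share of all genes at that threshold was not computed. Of paternally expressed members 6 of 15 were lower, and of maternally expressed 3 of 13. This comparison shares the day 4 arrays with the one from day 0 to day 4.

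Dlk1 lay at 7.71 and 7.80 in adult islets against 13.97 and 14.12 at day 4. The difference of -6.30 ± 0.24 (adjusted p = 4.30e-08), 78.5-fold, was the largest fall among the 10400 genes, and the adult mean was 0.64 above that of stem cells. Nnat was at 7.97 and 7.21 in adult islets, 1 of 2 arrays above background, and differed by -4.31 ± 0.73 from day 4 (adjusted p = 0.00243). Its second probe differed by -2.80. Igf2, at 13.39 and 12.72 at day 4, was at 9.31 and 9.01 in adult islets (-3.89 ± 0.70, adjusted p = 0.00358). These genes were low on both adult arrays, with no overlap with any progenitor array for Dlk1 and Igf2.

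Cdkn1c, Grb10, Cd81 and Ndn were also lower in adult islets. Cdkn1c was at 11.81 and 10.98 at day 4 and at 7.96 and 7.77 in adult islets (-3.53 ± 0.84, adjusted p = 0.0162), and its call was lost without any 1 of these 4 arrays (highest adjusted p = 0.126 over the alternatives). Grb10 was at 10.28 and 10.08 in adult islets (-2.19 ± 0.16, adjusted p = 7.46e-06). Cd81 was at 12.05 and 12.16 (-1.57 ± 0.25, adjusted p = 0.00178), below all progenitor arrays. Ndn was at 11.40 and 11.44 (-1.23 ± 0.14, adjusted p = 1.58e-04), still above both stem cell arrays. Igf2r (-0.71 ± 0.27, adjusted p = 0.114) and Phlda2 (-0.15 ± 0.22, adjusted p = 0.754) did not pass.

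Mkrn3 and Peg10 were below background on both adult arrays. Mkrn3 was at least 1.84-fold lower (adjusted p = 0.0103) and Peg10 at least 1.46-fold lower (adjusted p = 0.0391), and both lost the call without either day 4 or either adult array, Peg10 also without day 0 replicate 4 or day 1 replicate 3. Members that did not pass ranged from -1.41 ± 0.92 for Gnas, the stimulatory G protein alpha subunit, to 0.96 ± 0.31 for Rasgrf1 (adjusted p = 0.0684).

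Other cell types differed between these groups too. In adult islets 8 of 9 endothelial markers, 8 of 10 immune markers and 6 of 12 acinar markers were higher than at day 4. Of all genes 7.52% were called higher and 6.9% lower. Of the ductal markers 2 of 6 were higher, and of the endocrine progenitor markers 2 of 6 were lower. The endothelial markers averaged 9.43 to 9.46 in adult islets and 7.48 to 7.55 at day 4, with 5 of 9 at background on both day 4 arrays. The immune markers averaged 8.93 to 9.78 against 7.30 to 7.36, with 6 of 10 at background at day 4. The part of these cells in the lower levels of Dlk1 and the other members was not tested.

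**Figure D3:**
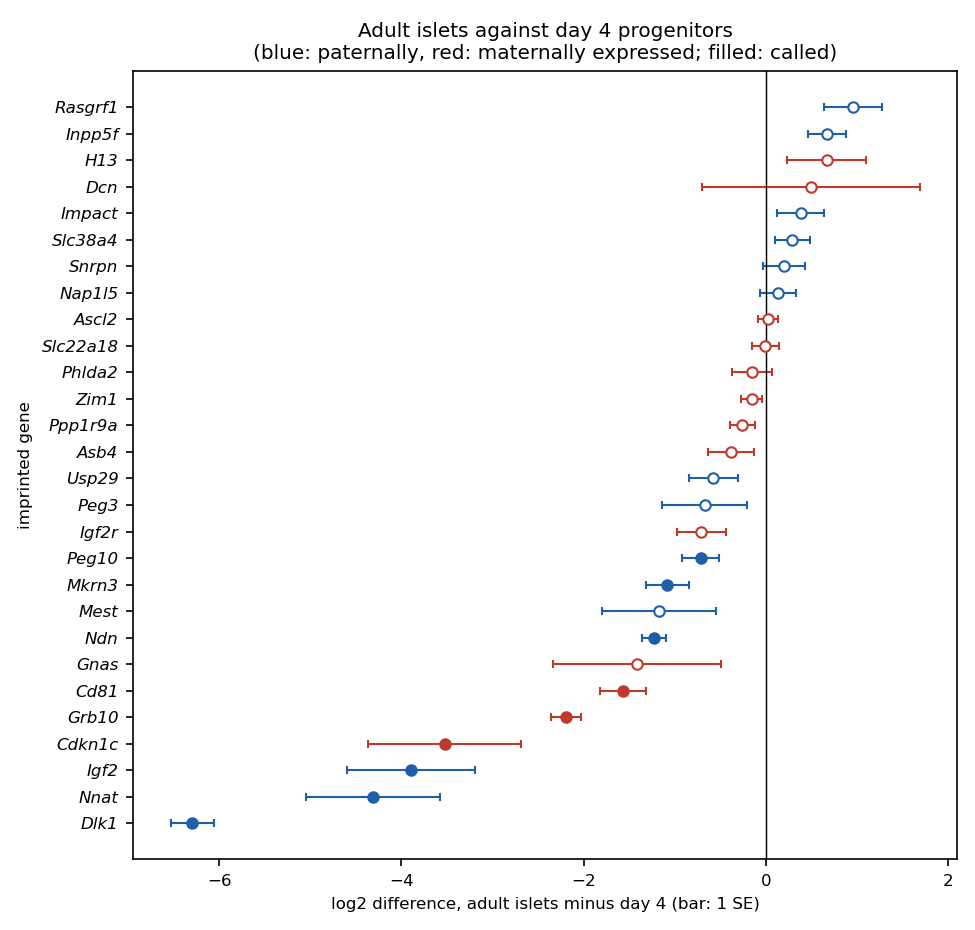
Log2 difference between adult islets and day 4 progenitors for the 28 measured members (points: limma estimate; bars: 1 SE; filled: adjusted p under 0.05; blue paternally, red maternally expressed). The 9 called genes all lie below 0, from Peg10 at -0.72 to Dlk1 at -6.30.

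Set against day 0, adult islets also showed rises. Of 28 measured members 5 were higher and 12 lower, against 34% of all genes called (14.7% higher and 19.3% lower), with a member median of -0.28 against -0.07. Inpp5f was at 11.24 and 11.52 (2.38 ± 0.18, adjusted p = 4.18e-06), Impact at 11.25 and 11.31 (1.60 ± 0.22, adjusted p = 3.06e-04) and Rasgrf1 at 11.45 and 11.77 (1.42 ± 0.27, adjusted p = 0.0024), each above every day 0 array. All 4 Rasgrf1 probes differed in this direction, by 1.42 to 2.45. H13, the signal peptide peptidase, was at 10.35 and 10.58 against 8.31 to 9.32 (1.70 ± 0.38, adjusted p = 0.00543), with 1 of its 3 measured probes at -0.28, and its call was lost without adult replicate 2. Snrpn rose by 0.56 ± 0.20 (adjusted p = 0.0496) and lost the call in 15 of 26 alternative settings.

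Among the members, the largest falls against day 0 were those of Dlk1 (-4.68 ± 0.20), Cdkn1c (-4.40 ± 0.72), Igf2 (-3.65 ± 0.61) and Grb10 (-3.31 ± 0.14). Mest, a hydrolase named for its mesoderm transcript, was at 10.43, 9.66, 8.47 and 10.52 at day 0 and at 7.14 and 7.36 in adult islets, its 3 probes differing by -1.28 to -2.52 (-2.52 ± 0.54 for the brightest, adjusted p = 0.00441). On the other arrays Mest was at 7.99 and 9.45 in stem cells, 9.38, 9.79 and 9.97 at day 1 and 8.72 and 8.12 at day 4. Ppp1r9a (-1.33 ± 0.12), Ndn (-1.07 ± 0.12), Peg10 (at least 2.41-fold), Mkrn3 (at least 1.79-fold), Asb4 (at least 1.74-fold), Phlda2 (at least 1.55-fold) and the organic cation transporter Slc22a18 (at least 1.13-fold) were also lower. The Phlda2 call was lost without either adult array, and the Slc22a18 call in 13 of 26 alternative settings.

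Adult islets had more Rasgrf1, Peg3, Nap1l5 and Inpp5f transcript than embryonic stem cells, and less Phlda2 and Igf2. Of 28 measured members 8 were higher and 3 lower in adult islets, against 47% of all genes called (23.2% higher and 23.8% lower), with a member median of 0.11 against 0.00. Rasgrf1 was at least 20.8-fold higher (adjusted p = 7.19e-07), and at least 17.1-, 6.87- and 7.05-fold on its dimmer probes. Peg3, at 9.55 and 9.25, was at least 4.47-fold higher (adjusted p = 0.00174) and Nap1l5, at 8.67 and 8.53, at least 2.57-fold (adjusted p = 4.45e-05). Inpp5f (2.38 ± 0.21), H13 (1.96 ± 0.44) and Ndn (1.70 ± 0.14) were higher as well. Dlk1 (0.64 ± 0.24, adjusted p = 0.0436) and Grb10 (0.63 ± 0.16, adjusted p = 0.00821) were called higher too. The Dlk1 call was lost in 13 of 26 alternative settings, and that of Grb10 without adult replicate 1 and after cyclic loess. Phlda2 was at least 7.99-fold lower (adjusted p = 7.90e-07), Igf2 differed by -2.65 ± 0.70 (adjusted p = 0.00907, lost without stem cell replicate 1 or adult replicate 2), and Slc22a18 was at least 1.27-fold lower, a call lost without stem cell replicate 1 or adult replicate 1.

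The remaining called members are given array by array, because group means hide how they run from stem cells to adult islets. Inpp5f was at 9.16 and 8.84 in stem cells, 8.82, 9.18, 9.01 and 8.998 at day 0, 10.36, 10.01 and 9.67 at day 1, 10.69 and 10.72 at day 4 and 11.24 and 11.52 in adult islets. Its stem cell and day 0 arrays overlapped, and it was highest on the adult arrays. Impact was at 11.18 and 10.97 in stem cells, 9.62, 9.93, 9.33 and 9.85 at day 0, 10.31, 9.73 and 10.60 at day 1, 10.89 and 10.90 at day 4 and 11.25 and 11.31 in adult islets, lowest at day 0. Ndn was at 9.80 and 9.64 in stem cells, 12.66, 12.40, 12.40 and 12.49 at day 0, 12.57, 12.25 and 12.35 at day 1, 12.69 and 12.61 at day 4 and 11.40 and 11.44 in adult islets, within a narrow range on the progenitor arrays.

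Snrpn was at 11.99 and 11.39 in stem cells, 10.74, 10.27, 10.78 and 10.86 at day 0, 10.43, 10.70 and 10.82 at day 1, 10.98 and 11.07 at day 4 and 11.29 and 11.15 in adult islets. Rasgrf1 was at 7.14 and 7.02 in stem cells, 9.78, 9.94, 10.68 and 10.38 at day 0, 10.38, 11.30 and 10.75 at day 1, 10.64 and 10.67 at day 4 and 11.45 and 11.77 in adult islets. Nap1l5 was at 6.92 and 7.005 in stem cells, 7.87, 8.16, 8.45 and 8.13 at day 0, 8.15, 8.65 and 8.58 at day 1, 8.52 and 8.42 at day 4 and 8.67 and 8.53 in adult islets. Both Rasgrf1 and Nap1l5 were below background in stem cells and above it on all 11 pancreatic arrays.

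Peg10 was at 7.15 and 7.66 in stem cells, 8.27, 8.38, 8.90 and 8.47 at day 0, 8.17, 8.36 and 8.28 at day 1, 7.75 and 7.82 at day 4 and 7.10 and 7.03 in adult islets. Mkrn3 was at 7.73 and 7.30 in stem cells, 7.77, 7.96, 8.56 and 8.02 at day 0, 8.33, 8.69 and 8.61 at day 1, 8.09 and 8.15 at day 4 and 6.998 and 7.08 in adult islets. Peg3 was at 7.17 and 7.01 in stem cells, 9.85, 7.99, 8.94 and 9.002 at day 0, 9.93, 9.12 and 10.03 at day 1, 10.05 and 10.09 at day 4 and 9.55 and 9.25 in adult islets. Peg10 and Mkrn3 were below background in adult islets, where Peg3 was not.

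Among maternally expressed members, Cdkn1c was at 9.65 and 9.20 in stem cells, 12.48, 11.52, 12.22 and 12.86 at day 0, 10.52, 13.95 and 12.84 at day 1, 11.81 and 10.98 at day 4 and 7.96 and 7.77 in adult islets. Cd81 was at 12.93 and 12.39 in stem cells, 12.84, 12.91, 12.31 and 12.75 at day 0, 13.14, 12.50 and 13.04 at day 1, 13.64 and 13.71 at day 4 and 12.05 and 12.16 in adult islets. H13 was at 8.13 and 8.89 in stem cells, 9.32, 8.59, 8.31 and 8.85 at day 0, 9.75, 8.25 and 8.97 at day 1, 9.79 and 9.82 at day 4 and 10.35 and 10.58 in adult islets. For Cd81 the highest arrays were those of day 4, and for H13 those of adult islets.

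Ppp1r9a was at 9.23 and 9.54 in stem cells, 10.51, 10.64, 10.68 and 10.73 at day 0, 10.19, 10.13 and 9.92 at day 1, 9.59 and 9.55 at day 4 and 9.29 and 9.33 in adult islets, highest at day 0. Asb4 was at 7.04 and 6.90 in stem cells, 7.80, 7.74, 7.96 and 8.65 at day 0, 7.38, 7.60 and 7.67 at day 1, 7.30 and 7.42 at day 4 and 6.91 and 7.05 in adult islets, also highest at day 0 and below background in stem cells and adult islets. A second Asb4 probe was at background on every array (highest 7.215), so the Asb4 calls rest on 1 probe. Phlda2 was at 9.93 and 10.54 in stem cells, 7.66, 7.89, 7.99 and 7.92 at day 0, 7.24, 7.79 and 7.39 at day 1, 7.25 and 7.38 at day 4 and 7.19 and 7.14 in adult islets, highest in stem cells. Slc22a18 was at 7.71 and 7.46 in stem cells, 7.48, 7.52, 7.37 and 7.28 at day 0, 7.12, 7.39 and 7.02 at day 1, 7.02 and 7.10 at day 4 and 7.03 and 7.07 in adult islets, within 0.5 of the background level on every array.

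Some members varied widely between replicates of a group. The pooled SD within groups was 1.39 for Dcn, 1.07 for Gnas, 0.97 for Cdkn1c, 0.85 for Nnat, 0.82 for Igf2 and 0.72 for Mest, at percentiles 98.6 to 99.9 of all genes tested, with a median of 0.27 over the members and 0.20 over all genes. Dcn, the matrix proteoglycan decorin of connective tissue, was at 12.09 and 7.82 on the stem cell arrays and between 7.80 and 10.95 on the progenitor arrays. The 15 measured of 20 mesenchyme markers averaged 8.78 and 7.88 on those stem cell arrays.

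Igf2 ordered the arrays as these markers did inside stem cells, day 1 and day 4, but not inside day 0 or adult islets. Stem cells, day 4 and adult islets have only 2 arrays each. At day 1 Igf2 was 11.63, 13.63 and 12.76 on replicates 1 to 3, where the markers averaged 7.27, 8.42 and 8.05. The acinar, endothelial, immune, erythroid and cell cycle markers ran in this order at day 1 too, so it was not particular to mesenchyme. The beta cell, other endocrine, endocrine progenitor, ductal and pluripotency markers did not. At day 0 Igf2 was 13.56, 12.14, 12.05 and 13.48, where the mesenchyme markers averaged 8.02, 7.62, 7.45 and 8.62. Cdkn1c at day 1 was 10.52, 13.95 and 12.84 on the same arrays. In adult islets the mesenchyme markers averaged 7.79 and 7.85, inside the range of 7.74 to 8.06 at day 4, while Igf2 was 9.31 and 9.01. By limma 0 of 15 passed between these groups, against 14.4% of all genes. At an unadjusted limma p under 0.05 it was 1 of 15, and the share of all genes at that threshold was not computed. The marker median was -0.19 against -0.04 over all genes. At day 4, and also in adult islets, 4 of the 15 were at background on both arrays, so this count does not show equal mesenchyme content. The part of mesenchyme transcripts in the spread of Igf2 and Cdkn1c was not tested.

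**Figure D4:**
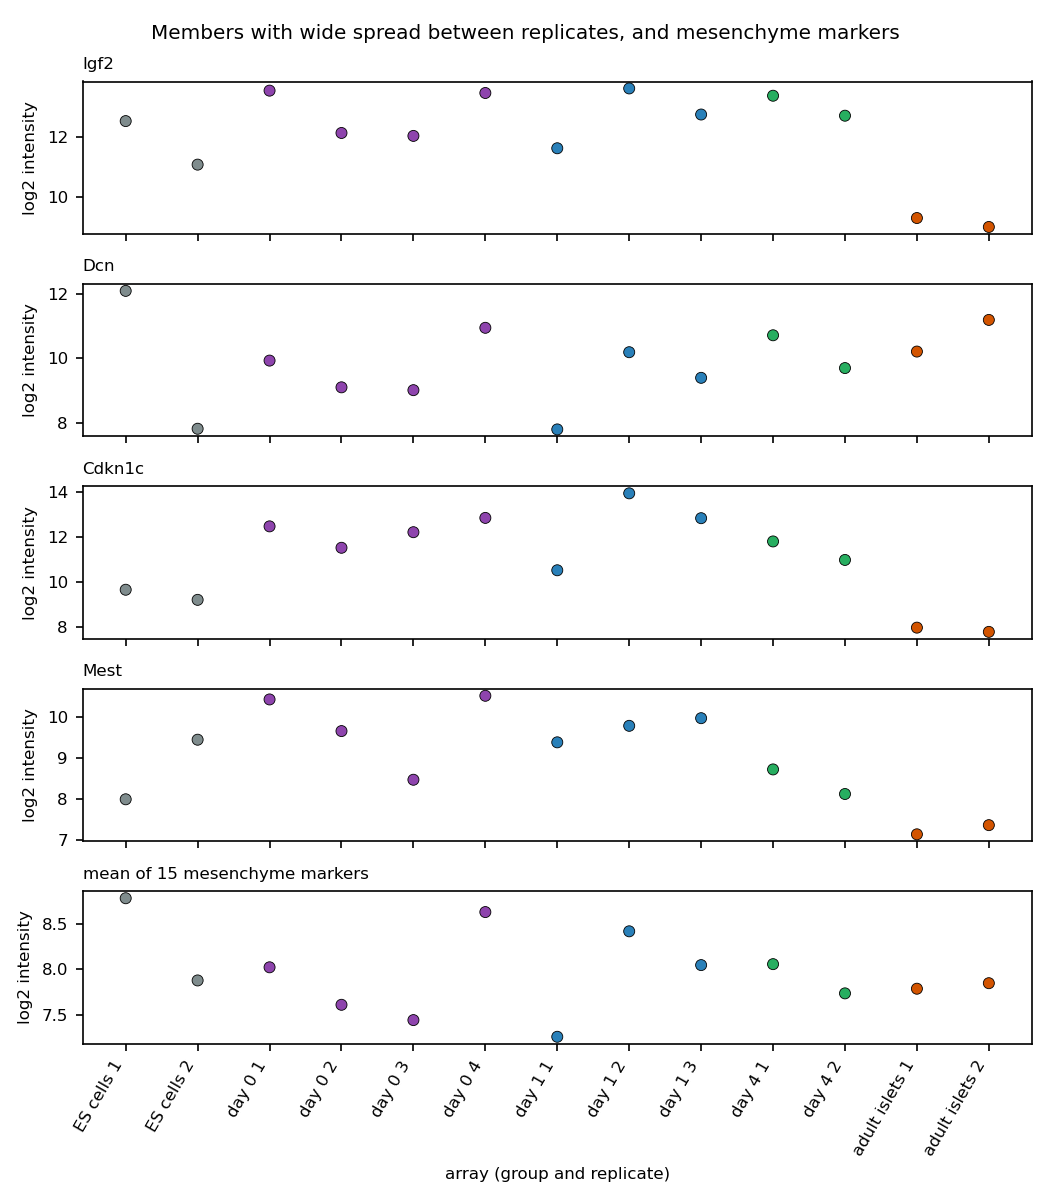
Log2 intensity of Igf2, Dcn, Cdkn1c and Mest and the mean of 15 mesenchyme markers on each of the 13 arrays (points, coloured by group; each panel has its own axis). Day 1 replicate 1 is the lowest of its group in all 5 panels, and adult islets are low for Igf2, Cdkn1c and Mest while their marker mean lies among those of the progenitors.

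Gnas stood at 11.93, 9.18, 9.79 and 11.33 at day 0, 12.27, 9.39 and 11.08 at day 1, and 12.43 and 12.53 at day 4. Its difference from day 0 to day 4 was 1.92 ± 0.80 (adjusted p = 0.149), while its 3 dimmer probes differed by 2.03, 0.53 and -0.0011. Usp29 was at 8.14, 8.83 and 8.33 at day 1, where it was highest (0.71 ± 0.21 over day 0, adjusted p = 0.0861). Zim1, a zinc finger gene beside Peg3, and Ascl2, a basic helix-loop-helix factor of trophoblast, were above background on 2 of 13 arrays each and never exceeded 7.35 and 7.25.

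Of 13 measured genes of the insulin-like growth factor axis, 1 was higher and 2 lower in adult islets than at day 4, or 23.1% against 14.4% of all genes. The 2 lower were Igf2bp3 (at least 7.36-fold, adjusted p = 2.33e-05) and Igf2bp1 (at least 2.09-fold, adjusted p = 5.74e-04), proteins that bind Igf2 mRNA, and the higher was Igfals, which carries circulating IGF complexes (1.21 ± 0.25). From day 0 to day 4, 4 were higher, led by the binding protein Igfbp7 (1.55 ± 0.44), the adaptor Irs2 (0.90 ± 0.23) and the receptor Igf1r (0.81 ± 0.22), and 3 lower, Igf2bp1 (-1.14 ± 0.16), Igf1 (at least 1.95-fold) and Igf2bp3 (-0.81 ± 0.23), or 53.8% against 11.4% of all genes. From stem cells to day 0, 5 were higher and 2 lower, a share of 53.8% near the 49.2% of all genes, with Igfals (2.39 ± 0.22) at the top and Igfbp2 (-2.63 ± 0.31) at the bottom.

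Enzymes and factors that set or keep imprints were mostly lower in pancreatic samples than in stem cells. Of 14 measured, 2 were higher and 12 lower at day 0, against 26.5% higher and 22.8% lower of all genes, with a median of -1.43 against 0.05. Dnmt3l, the cofactor of germ line methylation, was below background at day 0 and at least 46-fold lower (adjusted p = 2.83e-11), and the methyltransferase Dnmt3b (-3.02 ± 0.21) and Uhrf1, which guides Dnmt1 to replicating DNA (-2.70 ± 0.42), followed. The 2 higher were the histone methyltransferase Ehmt2 (0.94 ± 0.14) and Arid4b (0.37 ± 0.11). Between day 4 and adult islets, where 14.4% of all genes were called, by limma 0 were higher and 2 lower. At an unadjusted limma p under 0.05 they were 0 and 7, a threshold at which the share of all genes was not computed. The 2 lower were Uhrf1 (-2.62 ± 0.48) and the maintenance methyltransferase Dnmt1 (-1.38 ± 0.19). Beside them, 8 of 10 cell cycle markers were lower in adult islets, averaging 8.68 to 8.74 at day 4 and 7.24 to 7.36 in adult islets.

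A further list of 44 imprinted genes had 23 measured. In adult islets against day 4, 2 of them were higher and 1 lower (13%, near the 14.4% of all genes), namely Ddc, aromatic amino acid decarboxylase (1.97 ± 0.18), the actin nucleator Cobl (at least 1.94-fold) and the glutaminyl cyclase Qpct (-1.05 ± 0.23). From day 0 to day 4, 1 was higher, Qpct (1.33 ± 0.20), and 2 were lower, the lactonase Pon3 (-0.54 ± 0.13) and the potassium channel Kcnq1 (at least 1.16-fold), or 13% against 11.4% of all genes. From stem cells to day 0, 8 were higher, led by Ddc (2.38 ± 0.16), and 3 lower, led by the adaptor Gab1 (-2.53 ± 0.20), a share of 47.8% near the 49.2% of all genes. Against day 0, adult islets had 4 of these genes higher and 5 lower (39.1% against 34% of all genes), with Ddc at 1.46 ± 0.16 and Gab1 at -1.33 ± 0.20. During the first day Dhcr7, the last enzyme of cholesterol synthesis, rose (0.79 ± 0.17), and Ddc (-1.21 ± 0.14) and Pon3 (-0.73 ± 0.11) fell, 13% of the list against 4.37% of all genes.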

How the data were processed

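The 13 arrays were read from the authors' deposited table of log2 intensities, whose near-equal quartiles show scaling between arrays by a method not given in the sources used here; that the log has base 2 follows from their span, and any variance stabilisation is not recorded. Per the labels' protocols, Trizol RNA was labelled with biotin by the Illumina TotalPrep kit. A table of signals before normalization (26 columns) was not used, since none of its headings can be tied to a sample. The array annotation names 1 gene for 23978 of 25697 probes, several for 0 and none for 1719. Background was set at 7.24, which lies 5 SD (each 0.0517, from values under the mode) above the mode at 6.98, and a probe was kept if above it on at least 2 arrays. The brightest kept probe by mean over all arrays stood for a gene. One model with 5 group means was fitted to 10400 genes with limma 3.58.1 (lmFit, eBayes) in R 4.3.3. Residual degrees of freedom were 8, and eBayes added 2.93. Calls were made at a Benjamini-Hochberg adjusted p under 0.05 over all genes. A fold against a group with no array above background is given as at least its ratio to that level. The number of arrays limits the precision, and groups of 2 share the spread of the others. The labels do not say that replicates of different groups are paired, so the fit has no pairing. Between same-numbered replicates of different groups 3 of 21 correlations of deviations were over 0.1, and between the other pairs 6 of 45. The highest were between day 0 replicate 3 and day 1 replicate 2 (0.55) and between day 0 replicate 4 and day 1 replicate 3 (0.37). Whether arrays were paired under other numbers was not tested. All 40 members, the lists of related genes and the cell markers were chosen with earlier results of these data known. By rule every member is named, values on every array are given for called members whose groups did not overlap, and genes of the related lists are named from up to 3 rises and 3 falls with the largest differences in a comparison. Of 8 markers for neural and Schwann cells, 3 were named in the array annotation, and 0 of these passed the background filter.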

Additional observations from a re-analysis of the deposited data

Results flagged for a closer look

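On the 4 day 0 arrays, the brighter Nnat probe was at 7.17 in replicate 2, at background, and between 9.67 and 9.74 in the other 3. The gap was 0.973 of the group's whole range, above Dixon's 95% critical value for 4 samples. The second Nnat probe read 9.81 in replicate 2, the highest of its 4 day 0 values (8.61, 9.81, 9.62 and 9.64), so the low value was not shared by both probes. Nnat was the only 1 of 28 measured genes so marked, and chance marks about 1 in 20 such groups.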

How the results depend on the processing

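Of 66 called differences of members, 43 kept the call in all 26 alternative settings (13 that each leave out 1 array and 13 others), 23 lost it in at least 1, and 55 differences that were not called passed in at least 1. With array weights the members called were 6 between day 0 and day 1, 14 between day 1 and day 4, 19 between day 0 and day 4 and 17 between day 4 and adult islets, against 3, 1, 8 and 9. The shares of all genes called then were 9.92%, 27.7%, 28.6% and 38.3%, against 4.37%, 1.55%, 11.4% and 14.4%. With only the arrays of the 2 groups compared the members called were 1 between day 0 and day 1, 0 between day 1 and day 4, and 20 between day 4 and adult islets. The shares of all genes were 1.62%, 0.135% and 39.1%. With the replicate number as a block the members called were 1 between day 0 and day 1 and 0 between day 1 and day 4. They were 6 between day 0 and day 4, 9 between day 4 and adult islets and 18 between day 0 and adult islets. Against stem cells they were 13 for day 0 and 10 for adult islets. With the block, the shares of all genes called in these 7 comparisons were 2.26%, 0.221%, 5.49%, 12.6%, 27.4%, 43.6% and 45.5%. The labels tie same-numbered samples by number alone (correlations of deviations -0.31 to 0.29 over 21 pairs). The strongest correlation, 0.55, was between day 0 replicate 3 and day 1 replicate 2. Without both arrays the member counts in the same order were 4, 1, 10, 11, 18, 16 and 15, and Ppp1r9a lost its call between day 0 and day 1. The shares of all genes were then 2.49%, 1.08%, 10.9%, 16.4%, 33.4%, 49% and 49.1%. Leaving out each array in turn gave 1 to 5, 0 to 3, 4 to 9, 6 to 11, 13 to 18, 13 to 18 and 8 to 13 calls in the same order. Igf2r between stem cells and day 0 reversed to -0.0054 with the mean of its probes, H13 in that comparison to -0.12 without stem cell replicate 1 (0.64 without replicate 2), and Dcn between stem cells and adult islets to -1.39 without stem cell replicate 2 (2.88 without replicate 1); the last 2 were not called. Where no cause is given by the setting itself, the cause was not tested. Signal near background limits Zim1, Ascl2, Slc22a18 and Asb4.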
